A study of Mus musculus with 6 samples.

Results

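The Rab GTPases and the subunits of the vacuolar ATPase (V-ATPase) were examined in bulk RNA-seq libraries of cells sorted as CD8+ TRLs. CD8+ TRLs are a regulatory-like class of CD8+ T cells, gated by FACS as CD122+ and CD49dlow. Genes were taken by name (symbols Rab followed by a number, or starting with Atp6v0 or Atp6v1) from the 24394 gene symbols of the count table. Of 82 matching symbols, 67 had 10 or more counts in at least 2 of the 6 libraries and are the members described here, 50 Rabs and 17 V-ATPase subunits. The other 15 symbols fell under that minimum. The 3 groups were the brain of mice after tMCAO (transient occlusion of the middle cerebral artery, an ischemic stroke model), the blood of mice after tMCAO, and the blood of mice after a sham operation, with 2 samples each. All samples came from 9-week-old male WT mice labelled C57BL/6NCrl, 3 days after surgery, with a 60 minute occlusion in the tMCAO groups and a pool of 500 to 1000 sorted cells per sample. The paper's data statement speaks of files per animal or sample, but no source used here says that each sample was 1 mouse, so p-values reflect only how far these samples lie apart, and that may be technical.

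Rabs are small GTPases that cycle between a GTP-bound form on a membrane and a GDP-bound form held in the cytosol, and each marks a step of membrane traffic. Rab5 and its relatives act on early endosomes, Rab7 and its relatives on late endosomes, lysosomes and phagosomes, Rab11 and Rab4 on recycling endosomes, and Rab1, Rab2, Rab6, Rab8 and Rab27 on the route through the Golgi and secretory granules to the cell surface. The V-ATPase is the proton pump that acidifies these compartments: its V1 sector hydrolyses ATP in the cytosol and its V0 sector carries protons across the membrane. The pump and the endosomal and lysosomal Rabs are prominent in phagocytes, and the granule Rabs serve the release of lytic granules in CD8+ T cells. By these roles 35 members were counted as endolysosomal (18 Rabs and the 17 V-ATPase subunits) and 32 as other (6 recycling, 22 secretory and Golgi, 4 of other roles).

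The libraries labelled tMCAO brain did not carry the T cell genes of the sort. Over a list of 15 T cell markers the summed level was 73.1 and 59.2 CPM (read counts relative to library size, scaled by TMM) in tMCAO brain, against 11710 and 16042 CPM in tMCAO blood and 10754 and 10443 CPM in sham blood, and all 15 were called lower in brain against each blood group. A list of 20 microglia and macrophage markers summed to 70920 and 83949 CPM in tMCAO brain, against 577 and 569 CPM in tMCAO blood and 1188 and 2841 CPM in sham blood, and all 20 were called higher in brain. *Cd8a*, which encodes the sorted CD8 chain, had 25 and 24 counts in tMCAO brain, against 15362 and 22001 in tMCAO blood and 18604 and 16884 in sham blood. Every brain comparison below therefore sets libraries rich in macrophage markers beside libraries rich in T cell markers, and the part of these other cells in any member's change was not tested. In bulk samples, fewer cells of a type and less RNA per cell cannot be told apart. Counts on genes were 13793081 and 14033525 in tMCAO brain, 16015169 and 17149924 in tMCAO blood and 16939161 and 16690639 in sham blood. Replicates lay further apart in tMCAO blood (SD of the log2 ratio between replicates over all tested genes 1.27) than in tMCAO brain (0.807) or sham blood (0.819).

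In brain, part of the endosomal and lysosomal Rabs and of the V-ATPase subunits was called higher than in blood. Secretory Rabs, like all genes tested, were called in both directions. A member was called where edgeR's quasi-likelihood test gave a Benjamini-Hochberg adjusted p under 0.05 over the 12424 genes tested and a fold over 2. All 67 members passed the filter on low counts. *Rab7b*, *Rab34*, *Rab13* and *Rab33a* met the count minimum through the brain libraries alone, and *Rab27b* and *Rab30* through the sham blood libraries alone. Their direction against the other groups was thus set by the rule, and they are included in the counts of called members. For tMCAO brain with tMCAO blood, 21 members were called higher and 6 lower, where 20.4% of all genes tested were called higher and 13.2% lower. Among the endolysosomal members 15 of 35 (42.9%) were called higher and 1 lower, with a median log2 fold change of 1.39. Among the other members 6 of 32 (18.8%) were called higher and 5 lower, with a median of 0.25. The median of all genes was 0.05, so the other members stood near the background and the endolysosomal members above it. For tMCAO brain with sham blood, 24 members were called higher and 6 lower, against 18.7% and 11.8% of all genes. There, 16 of 35 endolysosomal members were higher and 1 lower (median log2 fold change 1.51), and 8 of 32 other members were higher and 5 lower (median 0.27, all genes 0.13). The brain libraries serve in both comparisons. These calls are relative to TMM scaling. Scaled to the T cell markers instead, the median log2 fold change of all genes became 7.52 and 7.40, and 62 and 61 members were called higher and 0 lower in the 2 comparisons. By library size alone the median was −0.44 in both, with 13 and 15 members higher and 7 and 6 lower. The difference between the classes was not tested.

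**Figure D1:**
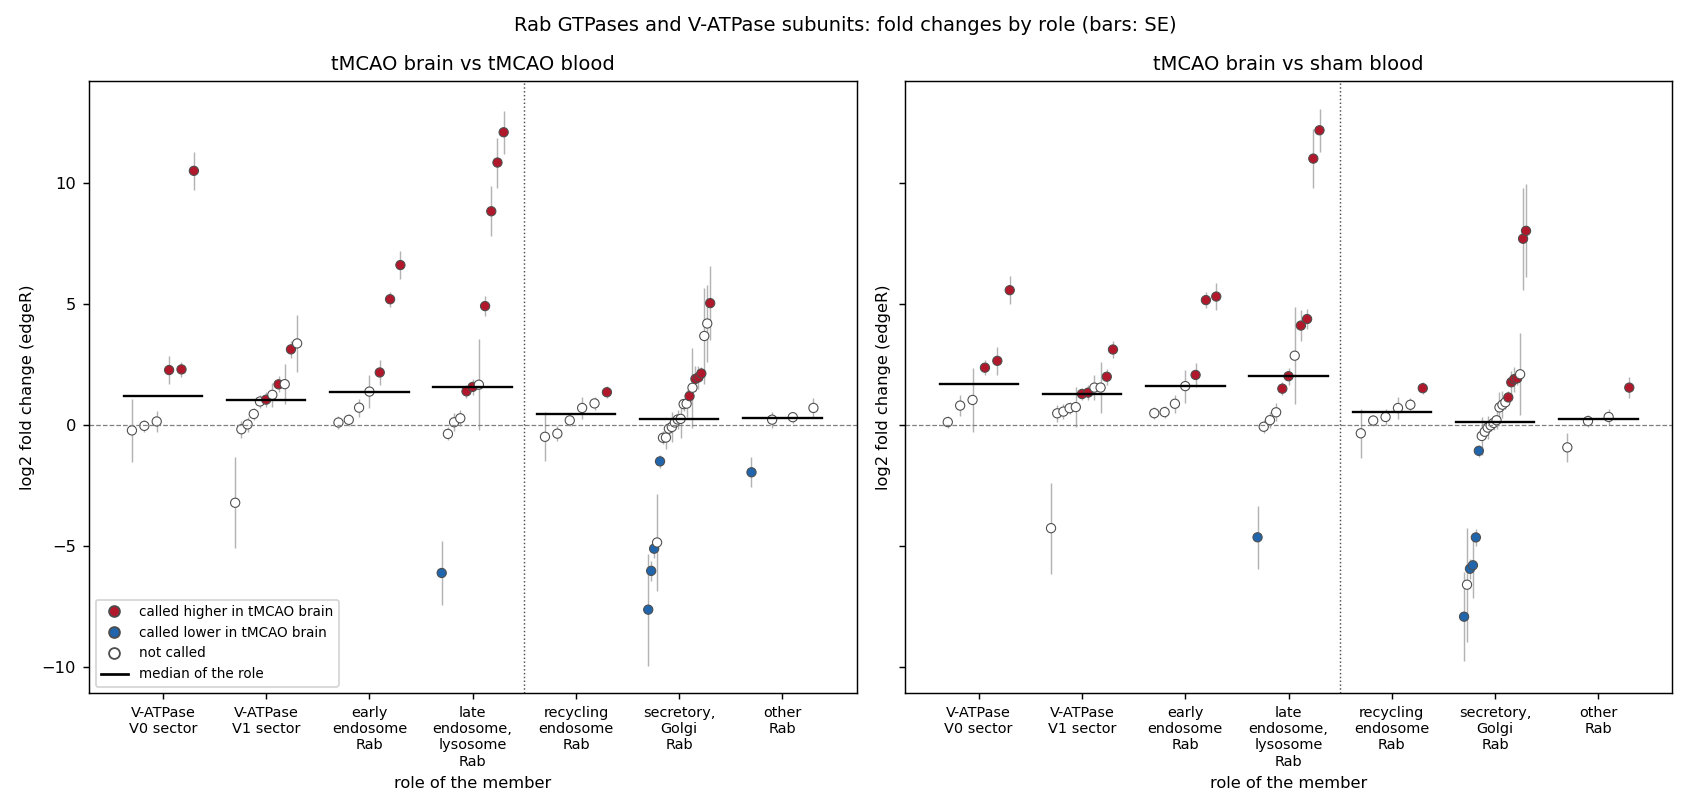
Log2 fold change (edgeR, y axis, bars SE) of all 67 members by role (x axis) for tMCAO brain with tMCAO blood (left) and tMCAO brain with sham blood (right). Red points were called higher in tMCAO brain, blue lower, open points neither, and black lines are medians, all under TMM scaling (scaled to T cell markers, none is called lower). The 4 roles left of the dotted line are the endolysosomal ones, whose medians lie above 1, while the recycling, secretory and other roles have medians between 0.15 and 0.52.

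Under TMM scaling, the sums over the members of a class stood higher in both brain libraries than in all 4 blood libraries. The scaling factors were 0.787 and 0.78 in tMCAO brain, 1.21 and 0.998 in tMCAO blood and 1.16 and 1.17 in sham blood. The 18 endolysosomal Rabs reached 4345 and 3373 CPM in tMCAO brain, against 1039 and 1142 CPM in tMCAO blood and 942 and 1008 CPM in sham blood. The V-ATPase subunits summed to 5678 and 5160 CPM in tMCAO brain, against 1936 and 3583 CPM in tMCAO blood and 2062 CPM in each sham blood library. The other Rabs summed to 4903 and 4500 CPM in tMCAO brain, against 3449 and 3568 CPM in tMCAO blood and 3159 and 3279 CPM in sham blood. The gap was narrowest for the other Rabs, whose sums overlap between brain and blood libraries when these factors are taken out. The second tMCAO blood library stood above the first for the V-ATPase.

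**Figure D2:**
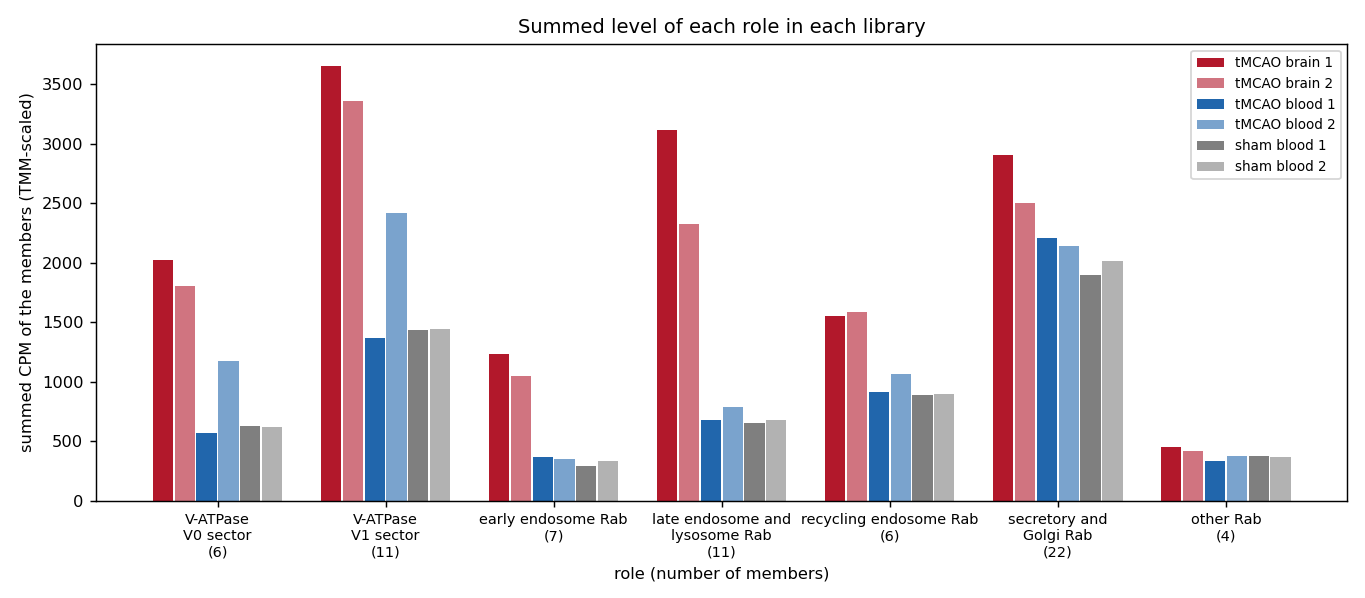
Summed CPM (y axis, TMM-scaled, from 0) of the members of each role (x axis, number of members in brackets), with 1 bar per library, tMCAO brain in red, tMCAO blood in blue and sham blood in grey. Late endosome and lysosome Rabs reached 3113 and 2324 CPM in tMCAO brain, against 675 and 790 CPM in tMCAO blood and 653 and 678 CPM in sham blood.

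Among the late endosome and lysosome Rabs, 6 of 11 (54.55%) were called higher and 1 (9.09%) lower in brain in both comparisons. The 6 include *Rab7b* and *Rab34*, which met the count minimum through the brain libraries alone and could hardly come out otherwise. Of all genes, 20.4% were called higher and 13.2% lower against tMCAO blood, and 18.7% and 11.8% against sham blood. *Rab7b*, a relative of Rab7 on the route from endosomes to the Golgi (chromosome 1, 131688695 to 131715439 of GRCm38, plus strand), had 4009 and 2024 counts (369 and 185 CPM) in tMCAO brain, against 2 and 0 counts in tMCAO blood and 0 and 2 counts in sham blood. Nearly all of its counts were in the brain libraries, with a ratio to tMCAO blood of 5052 (95% exact counting interval 1398 to 41726) and to sham blood of 5423 (1501 to 44790), and its adjusted p in edgeR was 0.0002 and 0.00028. These intervals cover counting error only. *Rab32*, which directs cargo to lysosome-related organelles (chromosome 10, 10545002 to 10558265), measured 1014 and 775 CPM in tMCAO brain, against 26.4 and 32.4 CPM in tMCAO blood and 29.6 and 55.7 CPM in sham blood. Its log2 fold change was 4.93 ± 0.42 (SE) against tMCAO blood and 4.39 ± 0.41 against sham blood. *Rab34*, which acts in phagosome maturation and lysosome positioning (chromosome 11, 78188430 to 78192193), had 13.5 and 18.8 CPM in tMCAO brain, with 1 count in both tMCAO blood libraries together and none in sham blood. Against a floor of 3 counts over the sham group, it was at least 210-fold higher in tMCAO brain. *Rab39*, a Rab of phagosomes (chromosome 9, 53684110 to 53706232), had 13.5 and 15.3 CPM in tMCAO brain, against 0 counts in both tMCAO blood libraries and 0.816 and 0.822 CPM in sham blood. It was at least 175-fold higher in tMCAO brain than in tMCAO blood, and 4.12 ± 0.63 higher on the log2 scale than in sham blood.

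*Rab7* itself, the Rab of late endosome to lysosome fusion (chromosome 6, 87999106 to 88045270), was abundant everywhere. It measured 1421 and 1086 CPM in tMCAO brain, against 473 and 478 CPM in tMCAO blood and 437 and 444 CPM in sham blood. Its log2 fold change was 1.40 ± 0.27 against tMCAO blood (edgeR adjusted p = 0.00755) and 1.51 ± 0.27 against sham blood. *Rab12*, which sends receptors from recycling endosomes to lysosomes, was also called higher in both comparisons (48.3 and 55.7 CPM in tMCAO brain, against 16.3 and 18.4 CPM in tMCAO blood and 10.2 and 15.4 CPM in sham blood). The remaining members of this role did not all follow. *Rab9*, *Rab24*, *Rab29* and *Rab36* passed neither brain comparison, with log2 fold changes against tMCAO blood of 0.28, 0.12, −0.36 and 1.67. *Rab39b*, a close relative of Rab39 known from neurons, ran the other way, with 1 and 0 counts in tMCAO brain, against 4.92 and 2.51 CPM in tMCAO blood and 1.02 and 1.64 CPM in sham blood. Some of these calls were lost when 1 library was left out, a fit that leaves 1 library in that group. Such a loss does not show that the call rested on that library. Without the first brain library, *Rab7* had an adjusted p of 0.0668 against tMCAO blood, *Rab12* 0.0719 and *Rab39b* 0.0535. Without the second, *Rab12* had 0.104 and *Rab39b* 0.0818. Against sham blood, *Rab39* had 0.0602 and 0.0709 without the first and the second brain library, *Rab7* 0.061 without the first brain library and 0.0891 and 0.0803 without either sham library, and *Rab12* 0.0586 without the second brain library and 0.0698 without the first sham library. *Rab39b* against sham blood lost its call without any of these 4 libraries, with adjusted p of 0.0945 to 0.164.

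Among the early endosome Rabs, 3 of 7 (42.9%) were called higher in brain in both comparisons, where 20.4% and 18.7% of all genes were. All 7 had positive log2 fold changes. *Rab20*, a Rab of phagosomes and early endosomes (chromosome 8, 11453518 to 11478710), had the smallest p of all members in both brain comparisons. It measured 277 and 232 CPM in tMCAO brain, against 5.85 and 7.89 CPM in tMCAO blood and 6.88 and 7.19 CPM in sham blood, a log2 fold change of 5.21 ± 0.32 against tMCAO blood and 5.17 ± 0.32 against sham blood (edgeR adjusted p = 0.000121 and 0.00018). Of its exon bases, 25.6% lie opposite another transcript, and the library kit does not mark strand, so reads of the pair cannot be told apart. *Rab31*, a relative of Rab5 between the Golgi and endosomes (chromosome 17, 65651729 to 65772752), measured 355 and 313 CPM in tMCAO brain, against 1.71 and 5.09 CPM in tMCAO blood and 6.63 and 10.1 CPM in sham blood. The brain libraries of both genes lay far above every blood library. The Rab5 genes, which define the early endosome, moved less and unequally. *Rab5c* had 189 and 123 CPM in tMCAO brain, against 50.9 and 18.1 CPM in tMCAO blood and 40.1 and 33.9 CPM in sham blood, and was called in both comparisons. *Rab5a* had 235 and 228 CPM in tMCAO brain, against 176 and 222 CPM in tMCAO blood and 150 and 179 CPM in sham blood. *Rab5a* was not called (log2 fold change 0.22 ± 0.25 against tMCAO blood), nor were *Rab5b*, *Rab21* and *Rab22a*. The call of *Rab5c* was lost without the first (adjusted p = 0.114) or the second brain library (0.0516) against tMCAO blood, and against sham blood without any of the 4 libraries compared (0.0675 to 0.145).

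**Figure D3:**
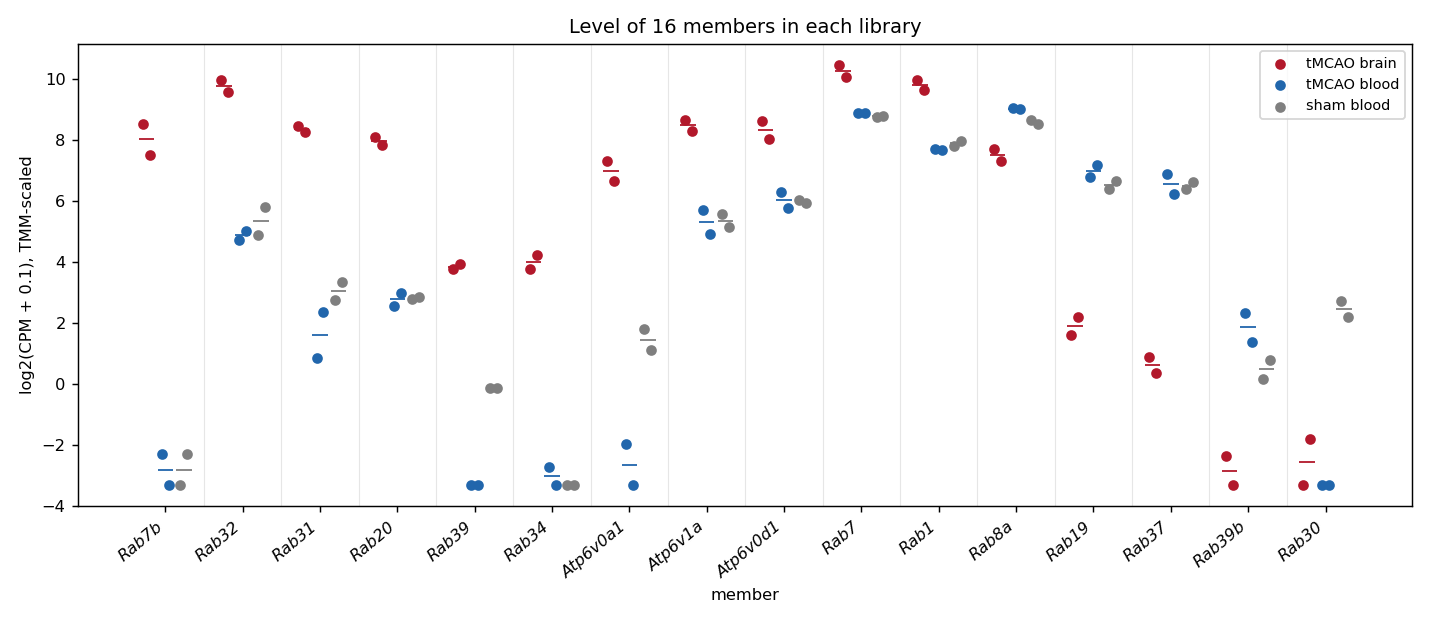
Level of 16 members in each library, as log2(CPM + 0.1) on the y axis (TMM-scaled CPM), with 2 points per group and a short line at their mean. From left to right within each gene, tMCAO brain is red, tMCAO blood blue and sham blood grey. The brain points lie above all blood points from *Rab7b* to *Rab1* and below them for *Rab8a*, *Rab19*, *Rab37* and *Rab39b*, which turn positive when scaled to T cell markers. Points at the bottom edge are libraries with 0 counts.

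The V-ATPase was higher in brain in part of its subunits and lower in none by the test. For tMCAO brain with tMCAO blood, 6 of 17 subunits (35.3%, all genes 20.4%) were called higher and 0 lower (all genes 13.2%). For tMCAO brain with sham blood, 7 (41.2%, all genes 18.7%) were called higher and 0 lower (all genes 11.8%, edgeR). At an unadjusted p under 0.05 the count lower was also 0 in both, as it was with DESeq2 and limma-voom. In the V1 sector, *Atp6v1a*, the catalytic A subunit (chromosome 16, 44085402 to 44139705), measured 405 and 319 CPM in tMCAO brain, against 51.8 and 30.6 CPM in tMCAO blood and 47.4 and 35.4 CPM in sham blood. Its log2 fold change was 3.13 ± 0.36 in both comparisons (edgeR adjusted p = 0.00103 and 0.00128). *Atp6v1b2*, the B subunit that pairs with A in the hexamer, measured 597 and 528 CPM in tMCAO brain, against 128 and 221 CPM in tMCAO blood and 123 and 157 CPM in sham blood. *Atp6v1c1*, the C subunit that joins the sectors, measured 496 and 488 CPM in tMCAO brain, against 182 and 292 CPM in tMCAO blood and 189 and 198 CPM in sham blood. *Atp6v1e1*, of the outer stalk, measured 377 and 340 CPM in tMCAO brain, against 155 and 208 CPM in tMCAO blood and 151 and 143 CPM in sham blood, and passed the fold threshold against sham blood only (log2 fold change 0.98 ± 0.26 against tMCAO blood, 1.29 ± 0.26 against sham blood). The rotor subunits did not share this. *Atp6v1d* and *Atp6v1f* had log2 fold changes of −0.17 ± 0.36 and 0.03 ± 0.31 against tMCAO blood, whose libraries overlapped those of brain for both, and 0.49 ± 0.36 and 0.56 ± 0.31 against sham blood. *Atp6v1g1*, of the stalk, and *Atp6v1h*, which regulates the pump, were higher in each brain library than in any blood library without passing the test (adjusted p = 0.0948 and 0.176 against tMCAO blood, 0.0551 and 0.0626 against sham blood). The paralogs *Atp6v1c2*, *Atp6v1g2* and *Atp6v1g3* stayed under 4 CPM in every library and were not called.

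In the V0 sector, *Atp6v0a1*, *Atp6v0d1* and *Atp6v0b* were called higher in brain in both comparisons. *Atp6v0d1*, the subunit d of the V0 stalk (chromosome 8, 105524465 to 105566047), measured 397 and 264 CPM in tMCAO brain, against 78.2 and 55.3 CPM in tMCAO blood and 65.3 and 61.9 CPM in sham blood, a log2 fold change of 2.31 ± 0.32 against tMCAO blood and 2.38 ± 0.32 against sham blood. *Atp6v0b*, of the proton-carrying ring, measured 773 and 716 CPM in tMCAO brain, against 65.2 and 241 CPM in tMCAO blood and 113 and 123 CPM in sham blood. *Atp6v0e* measured 595 and 610 CPM in tMCAO brain, against 308 and 777 CPM in tMCAO blood and 350 and 338 CPM in sham blood, and was not called. *Atp6v0e* thus overlapped between brain and tMCAO blood, where the second blood library was the highest of all 6. *Atp6v0d2*, the d paralog known from osteoclasts and macrophages, was at 4.88 and 0.183 CPM in tMCAO brain, against 1.81 and 4.09 CPM in tMCAO blood and 1.73 and 0.719 CPM in sham blood, with no call. The main subunit of the ring, *Atp6v0c*, had 8 and 2 counts in tMCAO brain and 0 in every blood library, under the minimum for a member. In the FPKM table its value was joined with that of *Atp6v0c-ps2*, a pseudogene copy, at 2910 and 2437 FPKM in tMCAO brain, against 235 and 255 FPKM in tMCAO blood and 256 and 291 FPKM in sham blood. The counting gave almost no reads to this pair, and its share in reads without a unique position was not tested. Among the subunits called, *Atp6v0a1*, *Atp6v0d1* and *Atp6v1a* kept their calls in both brain comparisons when any library was left out. Against tMCAO blood, the adjusted p without the first or second brain library was 0.11 or 0.0953 for *Atp6v0b*, 0.0754 or 0.0555 for *Atp6v1b2* and 0.167 or 0.162 for *Atp6v1c1*. *Atp6v1c1* also lost its call without the first tMCAO blood library (log2 fold change 0.75) and without either sham library (0.0905 and 0.0886). Against sham blood, leaving out any of the 4 libraries compared gave an adjusted p of 0.0733 to 0.0939 for *Atp6v0b*, 0.101 to 0.138 for *Atp6v1c1* and 0.075 to 0.122 for *Atp6v1e1*, and *Atp6v1b2* had 0.0529 without the first brain and 0.069 without the first sham library.

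The gene that supplied subunit a, the V0 subunit that places the pump on a given membrane, was not the same in brain and blood. *Atp6v0a1* (a1; chromosome 11, 101009452 to 101063719) had 1750 and 1114 counts (161 and 102 CPM) in tMCAO brain, against 3 and 0 counts in tMCAO blood and 67 and 40 counts (3.42 and 2.05 CPM) in sham blood. Its ratio to tMCAO blood was 1599 (95% exact counting interval 547 to 7758), and its log2 fold change against sham blood was 5.58 ± 0.58 (edgeR adjusted p = 0.000227 and 0.000889). *Atp6v0a2* (a2), known from the Golgi and endosomes, had 93.3 and 111 CPM in tMCAO brain, against 116 and 93.0 CPM in tMCAO blood and 95.5 and 92.0 CPM in sham blood, and was not called. Its log2 fold changes were −0.03 ± 0.25 and 0.13 ± 0.25 (SE), and brain and blood libraries overlapped. *Tcirg1*, which encodes a3, the form on lysosomes, is not a member by its name and was called higher against tMCAO blood (log2 fold change 3.20 ± 0.52, adjusted p = 0.00408). As a share of the summed FPKM of the a paralogs, a3 made up 73.7% and 66.8% in tMCAO brain, against 37.8% and 24.9% in tMCAO blood and 27.1% and 25.2% in sham blood. The a1 share was 18.2% and 18.4% in tMCAO brain, against 0.18% and 0 in tMCAO blood and 5.86% and 3.04% in sham blood. The a2 share was 8.11% and 14.9% in tMCAO brain, against 62.1% and 75.1% in tMCAO blood and 67.1% and 71.7% in sham blood. Thus a3 led in both brain libraries and a2 in all 4 blood libraries. No other subunit with paralogs changed its leading form: *Atp6v0d1*, *Atp6v0e*, *Atp6v1b2*, *Atp6v1c1*, *Atp6v1e1* and *Atp6v1g1* each made up 95.3% or more of their subunit in every library per kb of exons.

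**Figure D4:**
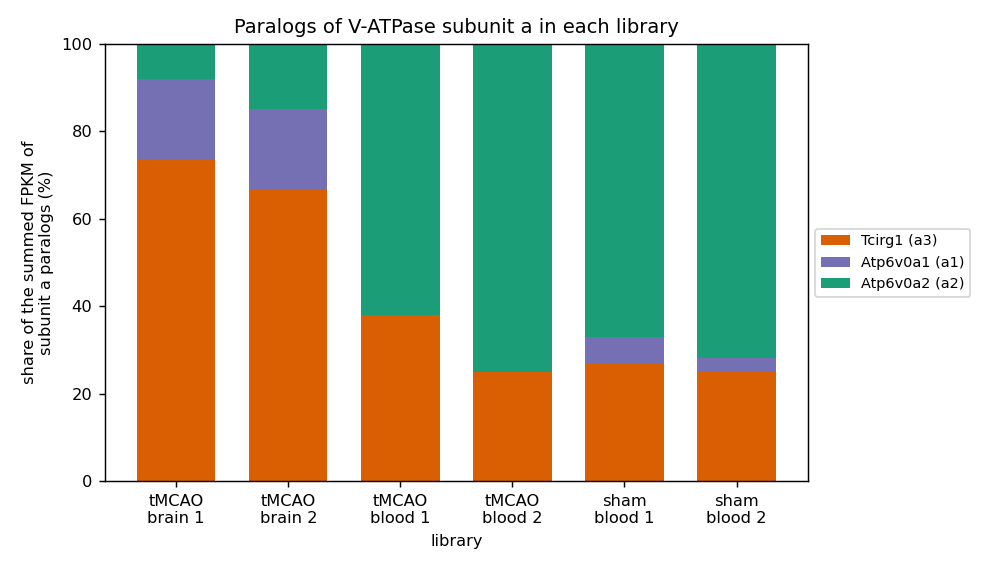
Share of the summed FPKM of the 3 detected paralogs of V-ATPase subunit a (y axis, percent) in each library (x axis), with *Tcirg1* (a3) in orange, *Atp6v0a1* (a1) in purple and *Atp6v0a2* (a2) in green. The a3 share is 73.7% and 66.8% in the tMCAO brain libraries and at most 37.8% in any blood library.

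Many lysosomal and V-ATPase genes are known to carry a palindrome that factors of the MiT family bind, so the promoters were searched for its letters. RefSeq starts of GRCm38.p6 matched 51 of the 67 members, with 61 windows of 250 bases before to 50 after a start. The E-box CACGTG, on either strand, was found in 8 of 30 windows of endolysosomal members (26.7%) and 2 of 31 of other members (6.45%), where 7.15% of all 32851 windows hold it. Its longer form TCACGTGA, which contains the E-box, was found in 6 of 30 endolysosomal windows (20.0%) and 0 of 31 others, where 0.974% of all windows hold it. The letters GAGGAAGT, searched on both strands as a form of the site of the myeloid factor PU.1, were found in 1 endolysosomal (*Rab32*) and 1 other window (*Rab2b*), with 3.2% of all windows. Called and uncalled members both carried the letters. Of the 6 genes with TCACGTGA, *Atp6v0d1* and *Atp6v1a* were called higher in brain and *Atp6v0e*, *Rab5a*, *Rab21* and *Rab24* were not, and *Rab31* and *Rab32*, also called, had no E-box in their windows. The windows of the 8 endolysosomal genes are shown, since they let the called and uncalled genes be compared base by base, from 250 bases before to 30 after the start, 5′ to 3′ on the gene's strand of GRCm38.p6, with matches in capitals. The first 6 hold TCACGTGA, and *Atp6v0b* and *Rab20*, both called higher, hold the E-box alone.
Atp6v0d1 (chr8:105566035-105566314, minus strand): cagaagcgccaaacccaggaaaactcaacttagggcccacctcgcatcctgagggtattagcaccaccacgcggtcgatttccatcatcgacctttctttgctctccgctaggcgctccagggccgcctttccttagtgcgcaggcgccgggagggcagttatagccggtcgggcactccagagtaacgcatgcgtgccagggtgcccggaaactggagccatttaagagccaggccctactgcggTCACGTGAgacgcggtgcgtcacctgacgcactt
Atp6v1a (chr16:44139230-44139509, minus strand): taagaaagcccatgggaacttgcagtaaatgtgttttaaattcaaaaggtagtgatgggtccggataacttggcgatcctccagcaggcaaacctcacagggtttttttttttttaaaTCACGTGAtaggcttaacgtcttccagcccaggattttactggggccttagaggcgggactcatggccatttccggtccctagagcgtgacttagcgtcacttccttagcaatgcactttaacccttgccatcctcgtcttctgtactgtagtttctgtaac
Atp6v0e (chr17:26676146-26676425, plus strand): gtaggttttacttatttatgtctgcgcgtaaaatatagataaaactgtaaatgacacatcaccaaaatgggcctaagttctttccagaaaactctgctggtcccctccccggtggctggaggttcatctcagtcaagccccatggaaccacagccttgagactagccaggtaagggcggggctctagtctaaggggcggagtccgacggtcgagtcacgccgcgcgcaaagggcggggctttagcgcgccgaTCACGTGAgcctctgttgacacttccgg
Rab5a (chr17:53478984-53479263, plus strand): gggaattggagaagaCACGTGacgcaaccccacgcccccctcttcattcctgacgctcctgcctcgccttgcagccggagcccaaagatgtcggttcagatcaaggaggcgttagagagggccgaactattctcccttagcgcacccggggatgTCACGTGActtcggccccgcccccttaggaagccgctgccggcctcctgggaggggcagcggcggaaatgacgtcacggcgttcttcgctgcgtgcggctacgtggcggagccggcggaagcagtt
Rab21 (chr10:115315562-115315841, minus strand): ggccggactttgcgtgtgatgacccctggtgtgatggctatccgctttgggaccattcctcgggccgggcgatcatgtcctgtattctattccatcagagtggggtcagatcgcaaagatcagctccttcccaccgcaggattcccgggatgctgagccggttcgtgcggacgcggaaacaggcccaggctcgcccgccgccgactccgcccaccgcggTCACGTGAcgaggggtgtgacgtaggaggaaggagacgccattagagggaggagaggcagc
Rab24 (chr13:55321951-55322230, minus strand): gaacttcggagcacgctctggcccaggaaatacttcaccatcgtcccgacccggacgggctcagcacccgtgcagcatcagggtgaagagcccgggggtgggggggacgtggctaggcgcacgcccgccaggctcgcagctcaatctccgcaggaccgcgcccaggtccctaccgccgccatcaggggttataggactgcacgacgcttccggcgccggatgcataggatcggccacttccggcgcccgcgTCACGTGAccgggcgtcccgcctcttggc
Atp6v0b (chr4:117887300-117887579, minus strand): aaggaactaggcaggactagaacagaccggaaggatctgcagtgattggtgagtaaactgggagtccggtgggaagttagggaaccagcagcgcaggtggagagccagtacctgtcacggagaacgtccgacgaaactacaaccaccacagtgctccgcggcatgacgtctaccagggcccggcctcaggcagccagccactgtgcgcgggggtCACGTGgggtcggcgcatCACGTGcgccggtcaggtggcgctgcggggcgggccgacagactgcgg
Rab20 (chr8:11478611-11478890, minus strand): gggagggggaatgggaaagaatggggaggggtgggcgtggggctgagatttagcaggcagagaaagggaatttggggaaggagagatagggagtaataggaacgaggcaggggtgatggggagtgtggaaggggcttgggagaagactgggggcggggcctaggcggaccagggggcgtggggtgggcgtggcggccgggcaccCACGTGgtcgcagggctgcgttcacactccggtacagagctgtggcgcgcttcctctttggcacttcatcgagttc

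Of the 6 recycling Rabs 1 was called (16.7%), where 20.4% of all genes were called higher against tMCAO blood and 18.7% against sham blood. *Rab14*, which serves traffic between the Golgi and endosomes, was called higher in both comparisons, with 593 and 634 CPM in tMCAO brain, against 244 and 234 CPM in tMCAO blood and 208 and 217 CPM in sham blood. Its log2 fold change was 1.36 ± 0.24 against tMCAO blood and 1.53 ± 0.24 against sham blood. Without the second brain library its adjusted p against tMCAO blood was 0.0514, and against sham blood it was 0.0726 and 0.06 without the first and the second sham library. *Rab11a*, the main recycling endosome Rab, had 409 and 457 CPM in tMCAO brain, against 193 and 272 CPM in tMCAO blood and 238 and 245 CPM in sham blood, under the fold threshold (log2 fold change 0.90 ± 0.27 and 0.84 ± 0.27). *Rab11b*, *Rab35*, *Rab4a* and *Rab4b* were not called.

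Of the 22 secretory and Golgi Rabs, 5 (22.7%, all genes 20.4%) were called higher and 4 (18.2%, all genes 13.2%) lower against tMCAO blood. These shares stood near those of all genes. Against sham blood 6 (27.3%, all genes 18.7%) were called higher and 5 (22.7%, all genes 11.8%) lower. *Rab1*, of the step from endoplasmic reticulum to Golgi, measured 1016 and 810 CPM in tMCAO brain, against 211 and 204 CPM in tMCAO blood and 224 and 253 CPM in sham blood, a log2 fold change of 2.14 ± 0.27 and 1.94 ± 0.26 (edgeR adjusted p = 0.00138 and 0.00237). *Rab6a*, of retrograde traffic to the Golgi, *Rab43* and *Rab3d*, of secretory granules, were also called higher in both comparisons, each with every brain library above every blood library. *Rab6a* had 93.2 and 81.5 CPM in tMCAO brain, against 41.0 and 35.0 CPM in tMCAO blood and 36.2 and 42.8 CPM in sham blood. *Rab43* shares 75.4% of its exon bases with another transcript, so its reads are uncertain. *Rab13* was scarce, with 44 counts over both brain libraries, against 2 over tMCAO blood (ratio 36.9, 95% exact counting interval 9.61 to 314) and 0 over sham blood (at least 26.4-fold higher). Apart from *Rab1*, none of these calls held without either brain library: against tMCAO blood the adjusted p was 0.114 and 0.0764 for *Rab6a*, 0.13 and 0.0686 for *Rab43*, 0.188 and 0.0638 for *Rab3d* and 0.264 and 0.228 for *Rab13* without the first and the second. Against sham blood, leaving out any of the 4 libraries compared gave 0.0986 to 0.19 for *Rab6a*, 0.0999 to 0.187 for *Rab43*, 0.075 to 0.211 for *Rab3d* and 0.142 to 0.171 for *Rab13*. Against tMCAO blood *Rab3d* was also lost without the second tMCAO blood library (0.0577) or the first sham library (0.051), and *Rab13* without any library. *Rab33a* and *Rab40c* were called higher against sham blood alone, at adjusted p of 0.0377 and 0.03, and lost the call without either sham library (0.0945 to 0.211) or without the second brain library (0.158 and 0.19). *Rab40c* also lost it without the first brain library, a fit in which *Rab33a* was not tested.

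*Rab37* and *Rab19* were the clearest of the members that were lower in brain under TMM, though scaled to the T cell markers both turned positive (log2 fold changes of 1.40 and 2.39 against tMCAO blood and 1.27 and 2.68 against sham blood). *Rab37*, a Rab of secretory granules (chromosome 11, 115091431 to 115162236), measured 1.75 and 1.19 CPM in tMCAO brain, against 118 and 74.7 CPM in tMCAO blood and 83.6 and 98.2 CPM in sham blood. Its log2 fold change was −6.03 ± 0.42 against tMCAO blood and −5.94 ± 0.42 against sham blood (edgeR adjusted p = 0.000184 and 0.000272). *Rab19* (chromosome 6, 39381175 to 39390380) measured 2.95 and 4.48 CPM in tMCAO brain, against 111 and 146 CPM in tMCAO blood and 84.5 and 102 CPM in sham blood, a log2 fold change of −5.11 ± 0.37 and −4.65 ± 0.36. Both genes kept their calls when any library was left out. The T cell markers had a median log2 fold change of −7.62 against tMCAO blood and −7.38 against sham blood, and the changes of both Rabs were smaller than that median. *Rab8a*, of exocytic traffic from the Golgi (chromosome 8, 72161200 to 72183904), was lower but still abundant in brain, with 210 and 162 CPM in tMCAO brain, against 529 and 521 CPM in tMCAO blood and 409 and 367 CPM in sham blood (−1.50 ± 0.26 and −1.06 ± 0.26 on the log2 scale). Against sham blood its adjusted p was 0.0606 to 0.172 when any of the 4 libraries compared was left out.

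*Rab27a*, which docks lytic granules in cytotoxic T cells, was low and not called, with 11.7 and 17.6 CPM in tMCAO brain, against 29.3 and 12.5 CPM in tMCAO blood and 15.6 and 15.8 CPM in sham blood. Its paralog *Rab27b* had 0 counts in both brain libraries, against 8 counts over tMCAO blood and 73 over sham blood, which made it at least 13.5-fold lower in tMCAO brain than in sham blood (adjusted p = 0.023). *Rab26* and *Rab23*, a regulator of hedgehog signaling, were called lower against tMCAO blood (adjusted p = 0.0478 and 0.0477), and *Rab30*, of the Golgi, against sham blood (0.0232). *Rab26* had 0 counts in both brain libraries, against 52 and 6 in tMCAO blood. Against the floor it was at least 11.5-fold lower in tMCAO brain, and at least 2.55-fold lower without the first tMCAO blood library, which held most of its counts, and limma-voom did not call it (adjusted p = 0.0517). *Rab23* had 1.57 and 3.48 CPM in tMCAO brain, against 11.6 and 7.95 CPM in tMCAO blood. *Rab30* had 0 and 2 counts against 216 over sham blood, a ratio of sham blood to tMCAO brain of 60.1 (95% exact counting interval 16.4 to 499). The calls of these 4 genes were lost without either brain library, with adjusted p of 0.0619 to 0.206. They were also lost without either sham library (0.0842 to 0.149), and for *Rab23* and *Rab26* without the first tMCAO blood library (0.0871 and 0.145).

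Between the blood groups 1 member passed the test. Of 67 members 0 were called higher and 1 lower in tMCAO blood (edgeR), where 0% and 0.821% of all genes tested were called. At an unadjusted p under 0.05 the counts were 0 higher and 5 lower. DESeq2 called 0 higher and 3 lower, and limma-voom called none. The median log2 fold change was 0.16 for members and 0.03 for all genes. With 2 libraries a group, a member short of the threshold is not shown to be unchanged. The called member was *Atp6v0a1* (log2 fold change −4.94 ± 0.79, adjusted p = 0.0499), with 3 and 0 counts in tMCAO blood and 67 and 40 in sham blood. Its call lasted only without the first tMCAO blood library, and leaving out any other gave an adjusted p of 0.071 to 0.204. In a fit of the blood libraries alone no member was called lower. *Rab39* had 0 counts in tMCAO blood and 32 over sham blood (at least 9.94-fold lower), and *Rab30* had 0 and 216 (at least 67.1-fold lower), both short of the threshold (adjusted p = 0.0783 and 0.116). The sham blood libraries also held more B cell marker counts, at a summed 1025 and 602 CPM against 31.0 and 86.2 CPM in tMCAO blood, and 2 of 6 tested B cell markers and 3 of 20 macrophage markers were called lower in tMCAO blood. The part of such cells in the values of *Atp6v0a1*, *Rab39* and *Rab30* was not tested. *Rab4b*, *Rab40c* and *Atp6v1d* had the smallest p of the members with a positive change, at log2 fold changes of 0.69, 0.84 and 0.66 and adjusted p of 0.672 to 0.721.

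By mean FPKM, which is relative to transcript length, V-ATPase subunits led the members in all groups. *Atp6v1f*, of the rotor, and *Atp6v0e* were the first and second by mean FPKM in every group: *Atp6v1f* at 727 and 661 FPKM in tMCAO brain, against 726 and 995 FPKM in tMCAO blood and 617 and 622 FPKM in sham blood, and *Atp6v0e* at 693 and 688 FPKM in tMCAO brain, against 517 and 1070 FPKM in tMCAO blood and 527 and 513 FPKM in sham blood. In both blood groups *Atp6v1g1* came next, and *Atp6v0b* took that place in brain at 718 and 645 FPKM, against 89.1 and 264 FPKM in tMCAO blood and 138 and 158 FPKM in sham blood. By mean FPKM *Rab7* was the first Rab in every group, at 528 and 397 FPKM in tMCAO brain, against 256 and 207 FPKM in tMCAO blood and 213 and 220 FPKM in sham blood. In the blood groups *Rab2a*, of the Golgi, lay close to it, at 198 and 262 FPKM in tMCAO blood and 197 and 205 FPKM in sham blood. By CPM per kb of exons the order of *Rab7* and *Rab2a* was the other way in both blood groups, with *Rab2a* at 172 and 270 in tMCAO blood and 183 and 193 in sham blood, and *Rab7* at 181 and 183 in tMCAO blood and 167 and 170 in sham blood. On that scale *Atp6v1g1* led in brain at 666.5 and 645.9, ahead of *Rab7* at 544.4 and 416.2. *Atp6v0e* was not second in any group on that scale. It stood at 160.4 and 164.4 in tMCAO brain, 83.05 and 209.2 in tMCAO blood and 94.25 and 91.08 in sham blood. Values of *Rab8a*, *Rab4b*, *Rab43*, *Rab9*, *Rab3b* and *Atp6v0d1* are missing in some libraries of the FPKM table, where they were joined with a neighboring gene, and entered no ranking by FPKM.

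The count minimum separated genes near 10 counts. Just outside it, *Rab38*, a paralog of Rab32, had 20 and 7 counts in tMCAO brain and at most 3 in a blood library, *Atp6v0e2* had 26 counts in the second brain library alone, and *Rab9b* had 30 in the first tMCAO blood library alone. Just inside it, *Atp6v1g3* had 1 and 0 counts in tMCAO brain, against 17 over tMCAO blood and 40 over sham blood. *Atp6v0a4*, *Atp6v1b1* and *Atp6v1e2*, paralogs known from kidney or testis, had 0 counts in all 6 libraries.

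Lists of genes that act with the members were counted by the same test. Of all genes, 20.4% were called higher and 13.2% lower against tMCAO blood, and 18.7% and 11.8% against sham blood. Of 11 accessory, assembly and a3 subunit genes of the V-ATPase, 8 (72.7%) were called higher and 1 (9.09%) lower in tMCAO brain against tMCAO blood (median log2 fold change 1.41). Against sham blood 7 (63.6%) were called higher and 0 lower (DESeq2 called 1 lower there, limma-voom 0, with 1 at an unadjusted p under 0.05). The gene called lower against tMCAO blood was *Ncoa7* (log2 fold change −1.55, edgeR adjusted p = 0.0249 in that comparison). *Atp6ap2*, an accessory subunit, measured 1053 and 1360 CPM in tMCAO brain, against 195 and 269 CPM in tMCAO blood. *Dmxl2*, of a complex that assembles the pump, measured 102 and 66.8 CPM in tMCAO brain and 0 in both tMCAO blood libraries. Of 15 measured genes of late endosome effectors, lysosome membrane and the HOPS tether, 7 (46.7%) were higher and 0 lower against tMCAO blood (median 1.42). There 0 were lower also at an unadjusted p under 0.05 and by DESeq2 and limma-voom. Against sham blood 6 were higher and 1 lower (median 1.49), and the lower one was *Lrrk2*, a kinase that acts on Rabs (log2 fold change −2.92, adjusted p = 0.0354). Among the higher ones in both comparisons were *Lamp1* (3818 and 3547 CPM in tMCAO brain, against 234 and 196 CPM in tMCAO blood) and *Vps18*, a HOPS subunit (32.2 and 27.1 CPM in tMCAO brain, against 1.66 and 0.643 CPM in tMCAO blood). Of 13 measured early endosome and CORVET genes, 2 (15.4%) were higher and 1 (7.69%) lower against tMCAO blood (median 0.64). Against sham blood 3 (23.1%) were higher and 1 (7.69%) lower, so the shares higher stood near those of all genes. The recycling and granule effectors went both ways. Of 12 tested, 3 were higher (25%, all genes 20.4%) and 5 lower (41.7%, all genes 13.2%) against tMCAO blood, with a median of −1.07, and again 3 and 5 against sham blood, where limma-voom called 3 lower and DESeq2 1 higher. *Myo5a*, a motor for granules, was among the higher ones (131 and 83.6 CPM in tMCAO brain, against 4.81 and 4.50 CPM in tMCAO blood), as was *Mlph*, which links Rab27a to that motor (9.03 and 24.7 CPM in tMCAO brain and 0 in every blood library). *Sytl3* and *Sytl2*, effectors of Rab27, had 0.461 and 1.01 CPM and 0.276 and 0.549 CPM in tMCAO brain, against 90.4 and 33.9 CPM and 9.68 and 11.6 CPM in tMCAO blood.

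The enzymes of the Rab cycle were called in both directions. Of 28 exchange factors, which load Rabs with GTP, 9 (32.1%) were higher and 5 (17.9%) lower in tMCAO brain against tMCAO blood. In that comparison 20.4% of all genes were called higher and 13.2% lower. *Rab3il1* had 565 and 458 CPM in tMCAO brain, against 0.0517 and 0 CPM in tMCAO blood, and *Rin2*, which acts on Rab5, had 295 and 428 CPM in tMCAO brain, against 0.0517 and 0 CPM in tMCAO blood. Of 25 GTPase activating proteins, which switch Rabs off, 10 (40%) were higher and 2 (8%) lower against tMCAO blood. Against sham blood 9 (36%, all genes 18.7%) were higher and 2 (8%, all genes 11.8%) lower. Among the higher ones, *Tbc1d9* had 18.1 and 14.5 CPM in tMCAO brain and 0 in both tMCAO blood libraries. *Tbc1d14* had 146 and 129 CPM in tMCAO brain, against 45.1 and 33.7 CPM in tMCAO blood. The lower ones were *Tbc1d10c*, at 9.12 and 5.95 CPM in tMCAO brain, against 1426 and 1002 CPM in tMCAO blood, and *Rabgap1l*, at 8.20 and 4.76 CPM in tMCAO brain, against 193 and 192 CPM in tMCAO blood. Of 9 escort, prenylation and GDI genes, 1 (11.1%) was higher (*Gdi2*, log2 fold change 1.38 ± 0.25) and 1 (11.1%) lower (*Arl6ip5*, −1.37 ± 0.24). All 4 MiT transcription factors were called higher against tMCAO blood and 3 against sham blood, with *Tfec* at 45.7 and 22.1 CPM and *Mitf* at 17.2 and 12.99 CPM in tMCAO brain and 0 for both in tMCAO blood. *Tfe3* had 64.0 and 59.5 CPM in tMCAO brain, against 13.1 and 2.98 CPM in tMCAO blood. Between the blood groups 0 of the 117 genes tested from these 8 lists were called by edgeR or limma-voom and 2 by DESeq2, with 4 higher and 9 lower at an unadjusted p under 0.05.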

How the data were processed

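Cells sorted as CD8+ TRLs were sequenced with a SMART-Seq kit and Nextera XT (paired-end 75 bp, unstranded). Per the paper's methods and the submitters' processing notes, reads were checked with FastQC and mapped with TopHat to GRCm38 (mm10). Cufflinks then estimated abundance, genes were identified by Ensembl ID, and read counts and FPKM were obtained in R/Bioconductor. Which function counted the reads, and on which annotation release, is not given in the sources used here. As deposited, the first table held raw counts for each gene symbol and the second FPKM (fragments relative to gene length and library size), both made by the authors. Of the count lines, 5 that name no gene (reads outside features 43.0% to 45.6%, without a unique position 14.0% to 22.0%, ambiguous 0.487% to 0.721%) and 27 that carry dates were left out. FPKM lines that join symbols or miss a value (1177 and 1854 of 24572) were not used in shares. Joined lines are printed only where named.

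Counts were fitted with edgeR 4.0.16 in R 4.3.3 (filterByExpr, minimum 10 counts and total 15, 12424 genes; TMM; glmQLFit and glmQLFTest on all 6 libraries, Benjamini-Hochberg over all genes). The SE was taken as the absolute log2 fold change divided by the root of the F statistic. DESeq2 1.42.0, limma 3.58.1 (voom, and log2 FPKM with a pseudocount of 1 or 0.1) and other scalings were alternatives. A gene at 0 in a group was set at a floor of 3 counts over the group, as fitted fold changes of such genes depend on the prior count. Recomputed at these bounds, the medians did not move at 2 decimals. That could hardly come out otherwise, since these genes kept their direction and mostly lay far from the median. Symbols matched GENCODE M21 (81 of 82, all but *Rab1*). Besides *Rab43* and *Rab20*, exon bases were shared with other genes in *Rab4b* (65.0%), *Rab2b* (64.0%) and *Rab24* (62.4%). For *Rab6a*, *Rab33b* and *Rab39b* the share was 19.0%, 18.7% and 18.6%. The libraries are unstranded, so reads of these members are uncertain to that extent. On simulated counts, at an adjusted p under 0.05 in edgeR, 0% to 2.99% of 2-fold changes were recovered over the 3 comparisons. Recovery was 37.3% to 58.2% at 4-fold and 84.8% to 90.9% at 8-fold, with 4 to 7 unchanged genes called. Only 66 or 67 genes were changed at each fold, of 11001 to 11368 tested. In the data 4355 and 3956 of 12424 genes had an adjusted p under 0.05 in the brain comparisons (edgeR). The adjustment is stricter where fewer genes change, so this recovery does not describe the brain comparisons. A member that was not called is still not shown to be unchanged. Named members are the 10 higher and 10 lower with the smallest p in each comparison whose libraries do not overlap, every V-ATPase member, the 5 of highest mean FPKM in each group, those beside the count minimum, and up to 4 genes per partner list. Other members are named where a role is described, after their values were seen. The members and lists were chosen with earlier results of these data known. No permutation of 2 against 2 samples can pass 0.05, and all p-values are from the models.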

Additional observations from a re-analysis of the deposited data

How the results depend on the processing

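Counts of called members depended on the scaling. With libraries scaled to the 15 T cell markers, the median log2 fold change of all genes was 7.52 for tMCAO brain with tMCAO blood and 7.40 with sham blood, and 62 and 61 members were called higher (33 endolysosomal in each; 29 and 28 other) and 0 lower, where TMM gave 21 and 24 higher and 6 lower. Relative to that shift the lower members stayed below all genes, but their own log2 fold changes became positive: against tMCAO blood 7.48 for *Atp6v0a2*, 6.90 *Atp6v0d2*, 7.24 *Atp6v1d*, 2.39 *Rab19*, 5.64 *Rab23*, 7.07 *Rab29*, 7.31 *Rab2a*, 6.96 *Rab33b*, 1.40 *Rab37*, 1.04 *Rab39b*, 7.07 *Rab4b* and 5.93 *Rab8a*, and against sham blood 2.68 *Rab19*, 6.45 *Rab23*, 7.19 *Rab29*, 1.45 *Rab30*, 7.02 *Rab33b*, 1.27 *Rab37*, 2.28 *Rab39b* and 6.17 *Rab8a*. By library size alone (median of all genes −0.44 in both brain comparisons) 13 and 15 members were higher (1 and 3 other) and 7 and 6 lower. *Rab18* with sham blood turned to −1.14 and −1.15 on log2 FPKM with a pseudocount of 1 and 0.1; the cause was not tested. On FPKM, 13 and 14 members (2 and 2 other) were higher at a pseudocount of 1, 11 and 14 (1 and 2 other) at 0.1, and 9 and 9 (8 endolysosomal and 1 other in each) with no filter, with 0 endolysosomal members lower in each and 2 members lower with no filter. At an adjusted p under 0.01, 13 and 14 members (2 and 2 other) were higher and 3 and 2 (0 endolysosomal) lower. With Rab members alone 9 endolysosomal ones were higher in each. With no filter on low counts, or only the 2 groups fitted, 3 other members were lower against tMCAO blood, and with only the 2 groups 2 endolysosomal ones against sham blood.

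Same-numbered samples showed no shared deviation (correlation 0.0261, −0.0266 and −0.023 over 12424 genes). With 2 samples a group there is 1 independent deviation per group, so this cannot exclude that same-numbered samples were paired. With the replicate block 3 other members were lower against tMCAO blood, and 3 members (3 other, 0 endolysosomal) against sham blood. In tMCAO blood with sham blood, 2 members were lower with no filter or T cell scaling, 3 with DESeq2, and 0 by library size alone, limma-voom, only the 2 groups, FPKM at a pseudocount of 1 or with no filter, or an adjusted p under 0.01. Leaving out each library in turn gave, against tMCAO blood, 11 to 23 members higher (9 to 17 endolysosomal, 1 to 7 other) and 3 to 6 lower (0 to 1 and 3 to 5), against sham blood 10 to 26 higher (9 to 18, 1 to 8) and 2 to 6 lower (0 to 1, 2 to 5), and between the blood groups 0 to 4 higher and 0 to 3 lower. A lone replicate was assumed to vary like the other groups. By counts per kb of exons, the subunit a shares in tMCAO brain were 20.8% a1, 16.4% a2 and 62.8% a3, and in sham blood 2.29%, 75.9% and 21.8%. Of the fold changes of named members under all alternatives, 1989 kept their side of the threshold, 150 fell short of it and 46 newly passed. Another 22 turned direction with a call in the main fit or the alternative. Fold changes that turned without a call in either fit are counted among the 1989. Depth leaves folds of genes under 10 counts wide.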
